A study of Rattus norvegicus with 12 samples.

Results

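The genes described here are splicing factors of the rat testis, measured in prepubertal males fed casein or soy protein isolate with or without estradiol. They were chosen by gene symbol: the SR protein genes (Srsf), the hnRNP genes (Hnrnp), the genes of small nuclear ribonucleoprotein proteins (Snrp), the pre-mRNA processing factor genes (Prpf), U2af genes, and genes of the Sf3a and Sf3b complexes. The choice covered 97 of the 31099 probe sets on the array and 60 genes. A probe set is a group of short probes that reads 1 stretch of a transcript, mainly toward its 3′ end. Of these, 92 probe sets of 57 genes passed the filter on low values, 9 of them Srsf, 17 Hnrnp, 9 Snrp, 11 Prpf, 3 U2af and 8 Sf3a or Sf3b genes. Snrpn, Srsf3 and the pseudogene Srsf7-ps4 did not pass, nor did 1 probe set each of Hnrnpdl and Srsf10. A further 8 probe sets carried several gene symbols and were left out.

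The animals were male Sprague-Dawley rats, all nursed by dams on a casein AIN-93G diet, and there were 4 groups of 3 arrays. From postnatal day 21 to 33 the casein group ate casein AIN-93G and the soy group ate AIN-93G made with SPI, which is soy protein isolate. The other two groups ate the same diets and received 17beta estradiol under the skin by osmotic minipump, at 10 µg per kg per day. Testes were collected on postnatal day 34 and held whole, with all of their cell types. The labels do not say whether every array stands for its own animal, so p-values measure only the spread between these samples. The labels name no pump without estradiol in the other groups.

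Splicing removes introns from precursor messenger RNA and is carried out by the spliceosome, which is built from small nuclear RNAs and their proteins. U2AF and the SF3A and SF3B complexes recognise the 3′ end of the intron and its branch point, and the PRPF proteins take part in assembling and activating the complex. SR proteins mostly promote, and hnRNP proteins often oppose, the use of nearby exons. The testis is known for an unusually large number of alternatively spliced transcripts, which change as germ cells pass through meiosis.

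Values are log2 intensities after quantile normalization, the value of a gene is the mean of its probe sets, and differences are on the log2 scale with standard errors from limma. For 37 of the 57 genes the value rests on 1 probe set, among them Hnrnph1, Hnrnpf, Hnrnpr, Hnrnpc, Prpf19 and Prpf39. For these genes agreement between probe sets could not be checked. A gene was called when its adjusted p was under 0.05 in a limma fit over 11777 genes. Arrays of 1 group correlated at 0.988 to 0.997. The lowest correlation was that of replicates 1 and 2 of soy with estradiol. The median SD of the 57 genes was 0.17 in that group, against 0.05 in casein, 0.08 in casein with estradiol and 0.05 in soy. In soy with estradiol, replicate 2 was the lowest of its group for 12 of 17 Hnrnp genes and 6 of 9 Srsf genes and the highest for 7 of 9 Snrp genes. Replicate 1 stood apart as well, as the highest for 15 of 17 Hnrnp genes and 7 of 9 Srsf genes. For estradiol on soy, the counts of each family are therefore given with and without replicate 2, and single genes where it changed the call. Those of Srsf, Hnrnp, Snrp and Prpf are also given without replicate 1.

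Promoter windows of 54 of the 57 genes were found in RefSeq sequence of the rat build GRCr8, each 300 bases long. The start that a window is built on need not be the outer end of the gene in RefSeq: it was so for 22 of the 54, and 16 windows lay wholly inside the bounds of the gene. The windows of the genes with the largest rise on casein (Hnrnph1), the largest rise on soy (Snrpe) and the largest fall on soy (Hnrnpf) are shown, since these genes mark the ends of the estradiol response. The window of Hnrnph1 lies at chr10:35194383-35194682 on the plus strand, Snrpe at chr13:47609202-47609501 on the minus strand and Hnrnpf at chr4:152755418-152755717 on the plus strand. That of Hnrnph1 is wholly inside the gene, that of Snrpe has 189 bases inside it and that of Hnrnpf 50. Capitals mark letters that match a searched motif on either strand.
Hnrnph1: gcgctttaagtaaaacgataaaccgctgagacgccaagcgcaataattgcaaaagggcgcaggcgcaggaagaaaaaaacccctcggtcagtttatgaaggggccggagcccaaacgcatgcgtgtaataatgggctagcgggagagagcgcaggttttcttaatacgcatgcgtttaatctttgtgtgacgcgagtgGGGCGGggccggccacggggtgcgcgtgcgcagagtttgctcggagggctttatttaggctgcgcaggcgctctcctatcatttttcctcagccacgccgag
Snrpe: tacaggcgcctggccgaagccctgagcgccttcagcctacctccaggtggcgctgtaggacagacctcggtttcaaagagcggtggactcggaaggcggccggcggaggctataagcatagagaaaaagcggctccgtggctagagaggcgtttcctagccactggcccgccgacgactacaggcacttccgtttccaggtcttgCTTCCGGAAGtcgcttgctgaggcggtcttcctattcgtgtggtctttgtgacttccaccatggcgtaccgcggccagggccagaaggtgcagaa
Hnrnpf: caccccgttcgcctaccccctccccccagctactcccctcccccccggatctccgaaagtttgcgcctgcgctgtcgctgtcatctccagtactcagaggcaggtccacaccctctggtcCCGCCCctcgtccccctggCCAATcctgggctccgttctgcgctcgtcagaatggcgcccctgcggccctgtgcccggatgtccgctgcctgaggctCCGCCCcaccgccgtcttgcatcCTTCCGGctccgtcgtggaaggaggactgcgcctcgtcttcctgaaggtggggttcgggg
Hnrnph1 has 1 GC box, Snrpe has 2 ETS motifs that overlap on opposite strands, and Hnrnpf has 1 CCAAT box, 2 GC boxes and 1 ETS motif. The ETS motif CCGGAAG was found in 31.5% of the 54 promoters and in 9.22% of all 27457 rat promoters of this length. The GC box GGGCGG was found in 61.1% against 34.9%, and CCAAT in 53.7% against 37.7%. The median GC content was 59.5% in these promoters and 52.3% in all, and the shares were not adjusted for it. The 54 promoters are of genes past the filter on low values, while the 27457 were not limited to such genes. The full estrogen response element, GGTCA and TGACC spaced by 3 bases, was found in 0 of 54 promoters and in 0.025% of all. The CRE TGACGTCA stood in 1.85% against 1.91%, and TATAAA in 7.41% against 14.3%. These are matches of letters in a window and do not show that a factor binds there.

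Many splicing factor genes were higher with estradiol on both diets. On casein 36 of the 57 genes rose and 0 fell, while 19.8% of all genes tested rose and 24.2% fell. Without adjustment 40 of the 57 (70.2%) had p under 0.05, beside 51.8% of all genes. On soy 34 rose and 3 fell, while 22.7% of all genes rose and 27.4% fell, and 37 of the 57 (64.9%) had an unadjusted p under 0.05, beside 56.9% of all. The median difference of the 57 genes was 0.32 on casein and 0.28 on soy, beside −0.01 and −0.04 for all genes. The 3 arrays with estradiol lay wholly above the 3 without it for 43 genes on casein and 35 on soy, where the background was 29.2% and 25.2% of all genes. They lay wholly below for 2 and 3 genes, against 33.1% and 32.7%. Without replicate 2 of soy with estradiol, 36 genes rose and 4 fell on soy.

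**Figure D1:**
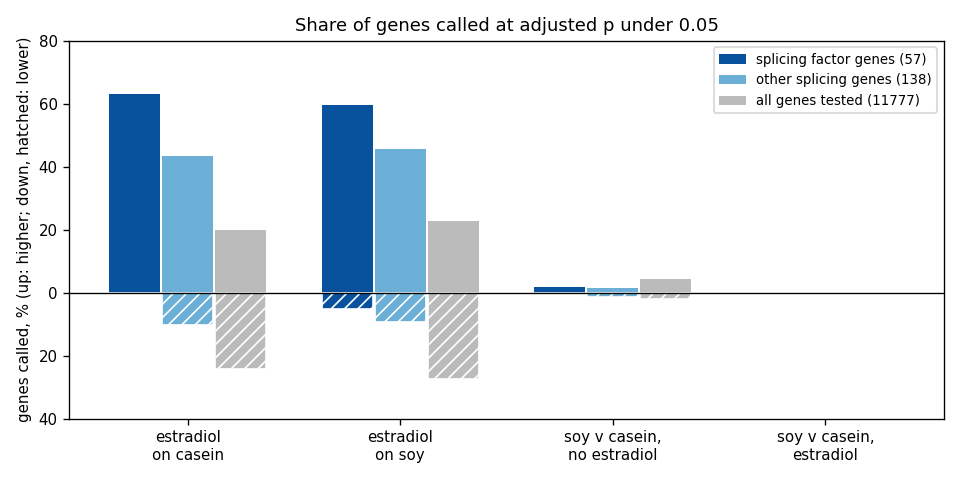
Share of genes called higher (upward bars) and lower (downward, hatched bars) in percent, for the 57 splicing factor genes, 138 other genes of the splicing machinery and all 11777 genes, in 4 comparisons. On casein 63.2% of the splicing factor genes and 43.5% of the other splicing genes were higher under estradiol, beside 19.8% of all genes.

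The size of the casein result depended on how the arrays were scaled. With the values as deposited 30 of the 57 genes rose and 2 fell, and with arrays centred on their medians 24 rose and 4 fell. Sf3a1 and Snrpa1 fell under both of these scalings, and Prpf38a and U2af1l4 under the second. Among all called genes the share that rose was 45.1% after quantile normalization, 40.2% as deposited and 31.9% after centring. On soy 32 genes rose and 3 fell under either scaling.

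SR proteins carry arginine and serine repeats and bind exonic enhancers. Of 9 Srsf genes, 6 rose on casein (median difference 0.52) and 5 on soy (median 0.23), and 0 fell on either diet. Without replicate 1 of soy with estradiol 5 rose on soy (median 0.27). Without replicate 2 of soy with estradiol 7 rose on soy (median 0.39): Srsf2 (0.39, adjusted p = 0.00608), Srsf5 (0.35, adjusted p = 0.00231) and Srsf6 (0.34, adjusted p = 0.00615) were then called, and Srsf7 no longer was (0.21, adjusted p = 0.0519). Srsf6 was then also called on casein (0.27, adjusted p = 0.0119). Srsf11, a member with a role in splice site choice, read 10.73, 10.67 and 10.67 on casein and 11.21, 11.16 and 11.38 with estradiol. It read 10.78, 10.72 and 10.76 on soy and 11.47, 11.08 and 11.17 with estradiol. The groups with and without estradiol did not overlap on either diet, and the differences were 0.56 ± 0.09 (adjusted p = 0.000996) and 0.49 ± 0.09 (adjusted p = 0.00169). Srsf4 rose by 0.52 on casein and by 0.39 on soy. Srsf1, the factor first described as ASF/SF2, rose by 0.53 and 0.48, and the soy call was lost on its brighter probe set (0.29, adjusted p = 0.131). Srsf2, known as SC35 and a marker of nuclear speckles, rose by 0.53 ± 0.12 on casein (adjusted p = 0.00503). On soy it read 10.45, 10.43 and 10.41, and 10.93, 10.36 and 10.70 with estradiol, where replicate 2 lay below all 3 soy arrays and no call was made (0.23, adjusted p = 0.131). Srsf2 was called on soy on its brighter probe set alone (0.57, adjusted p = 0.000534), as it was without replicate 2.

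The hnRNP proteins coat nascent transcripts and act in splicing, export and stability. Of 17 Hnrnp genes, 13 rose on casein and 12 on soy, with medians of 0.44 and 0.45, and 2 fell on soy. On soy the counts were 12 and 2 without replicate 2 of soy with estradiol, with a median of 0.46. Without its replicate 1 they were 11 and 2, with a median of 0.36. Hnrnph1, which binds runs of G, read 11.53, 11.47 and 11.39 on casein and 12.20, 12.08 and 12.31 with estradiol, a difference of 0.73 ± 0.11 or 1.66-fold (adjusted p = 0.000605). On soy it went from 11.50, 11.44 and 11.43 to 12.20, 11.66 and 11.98, by 0.49 ± 0.11 (adjusted p = 0.00410). Groups did not overlap on either diet, and replicate 2 was again the lowest of soy with estradiol. Hnrnpr read 10.51, 10.46 and 10.42 on casein and 11.17, 11.08 and 11.28 with estradiol, and its rise of 0.72 ± 0.09 was 1.64-fold (adjusted p = 0.000238). Hnrnpu, the scaffold attachment factor SAF-A, rose by 0.61 on casein (adjusted p = 0.000158) and by 0.47 on soy (adjusted p = 0.000464). Hnrnpc, whose protein binds runs of U and competes with U2AF, went from 10.75, 10.73 and 10.75 on soy to 11.70, 11.25 and 11.32, a 1.60-fold rise (0.68 ± 0.11, adjusted p = 0.000495).

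Hnrnpf, the close relative of Hnrnph1, went the other way on soy, with each of these genes read by 1 probe set. It read 11.39, 11.36 and 11.26 on soy and 11.01, 10.56 and 11.04 with estradiol, a fall of 1.38-fold (−0.47 ± 0.11, adjusted p = 0.00519). The groups did not overlap, with replicate 2 the lowest, and the call was kept in all 20 alternatives run. On casein it read 11.38, 11.33 and 11.19, and 11.24, 11.08 and 11.19 with estradiol, where the groups overlapped and no call was made (−0.13, adjusted p = 0.361). No difference between diets was called in the interaction test (−0.34 ± 0.16, adjusted p = 0.277). Hnrnpul1, an hnRNP U-like protein, fell by 0.25 on soy (adjusted p = 0.00756) and differed by −0.01 on casein. Hnrnpab had the widest spread of the family on soy with estradiol, at 11.06, 10.11 and 10.74, and was not called on either diet. Without replicate 2 of that group, or without its replicate 1, it was called on casein (0.44, adjusted p = 0.00647 and 0.0234), but not on soy.

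Most Snrp genes encode the Sm proteins that form a ring on small nuclear RNAs. Of 9 Snrp genes, 5 rose on casein (median 0.29) and 8 on soy (median 0.37). On soy 7 rose without replicate 2 of soy with estradiol (median 0.30) and 8 without its replicate 1 (median 0.45). Snrpe, an Sm ring protein, read 11.55, 11.67 and 11.64 on casein and 12.17, 12.11 and 12.31 with estradiol (0.58 ± 0.09, adjusted p = 0.000701). On soy it read 11.59, 11.61 and 11.61, and 12.47, 12.50 and 12.14 with estradiol, a 1.70-fold rise (0.77 ± 0.09, adjusted p = 0.000158). Every array with estradiol lay above every array without it. Snrpf, another ring protein, rose by 0.48 on casein and by 0.76 on soy, and Snrpb, which encodes the SmB proteins, by 0.58 and 0.62. Snrpb2 (0.35), Snrpd1 (0.37) and Snrpd2 (0.28) rose on soy, where replicate 2 was the highest of their group. On casein their differences were 0.11, 0.08 and −0.04, and none of the 3 had a called interaction. Without replicate 2 of soy with estradiol the call of Snrpd1 was lost (0.25, adjusted p = 0.0527), as it was without soy replicates 2 or 3 (adjusted p = 0.0518 and 0.0582). That of Snrpd2 was lost without soy replicates 1 or 2 (adjusted p = 0.0747 and 0.0622) and under both other scalings, and without replicate 2 of soy with estradiol its difference was 0.15 (adjusted p = 0.0389). Snrpa1, which encodes a protein of the U2 particle, was called on neither diet after quantile normalization.

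Of 11 Prpf genes, 7 rose on casein (median 0.32) and 6 on soy (median 0.16). On soy 3 rose without soy replicate 2, 3 without replicate 1 of soy with estradiol, and 7 without its replicate 2 (median 0.18), where Prpf4 was added (0.18, adjusted p = 0.0464). Prpf19, a ubiquitin ligase of the complex that activates the spliceosome, read 9.64, 9.60 and 9.58 on casein and 10.32, 10.03 and 10.48 with estradiol. This was a 1.59-fold rise (0.67 ± 0.10, adjusted p = 0.000609), and on soy it rose by 0.54 (adjusted p = 0.00159). Prpf39, a U1 snRNP factor, rose by 0.63 ± 0.07 on casein (adjusted p = 0.000112) and by 0.40 on soy. Prpf8, the large protein at the catalytic centre of the spliceosome, rose by 0.32 and 0.26. Prpf18, Prpf4, Prpf40b and Prpf38a were called on neither diet, although Prpf40b was called on casein without replicate 1 or 2 of soy with estradiol (0.14, adjusted p = 0.0380 and 0.0384).

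U2af1, the small U2AF subunit that reads the AG at the end of the intron, went from 10.29, 10.35 and 10.31 on soy to 10.86, 11.13 and 10.75 (0.59 ± 0.09, adjusted p = 0.000421). On casein it rose by 0.26 (adjusted p = 0.0308). Leaving out replicate 1, 2 or 3 of casein ended that call (adjusted p = 0.0717, 0.0634 and 0.0846). So did leaving out replicate 2 or 3 of the casein group given estradiol (adjusted p = 0.0594 and 0.115), and both other scalings. Of the 3 U2af genes, U2af1 alone rose on soy, with or without replicate 2 of soy with estradiol. Of 8 Sf3a and Sf3b genes, which encode proteins of the U2 particle, 3 rose on casein and 2 on soy. The casein count was 1 without casein replicates 2 or 3 or casein with estradiol replicate 3, and the soy count was 1 without soy replicates 1 or 2. Without replicate 2 of soy with estradiol 2 rose and 2 fell on soy (median 0.08): Sf3b3 rose (0.28, adjusted p = 0.0105) and Sf3a2 fell (−0.17, adjusted p = 0.0253), while Sf3b5 lost its call (0.15, adjusted p = 0.0794). Sf3b4 fell on soy (−0.18, adjusted p = 0.0386), a call lost without casein replicates 1, 2 or 3, casein with estradiol replicate 1, soy replicates 1 or 3, or soy with estradiol replicate 1 (adjusted p = 0.0512 to 0.146). Their median difference was 0.08 on casein, which turned to −0.03 as deposited and −0.07 after centring, and −0.02 on soy. Sf3b6, the subunit that contacts the branch point, rose by 0.35 on casein and by 0.51 on soy, and the casein call was lost after centring (adjusted p = 0.0909). Sf3a3 read 10.21, 8.95 and 9.95 on soy with estradiol, the widest spread of any of the 57 genes there.

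**Figure D2:**
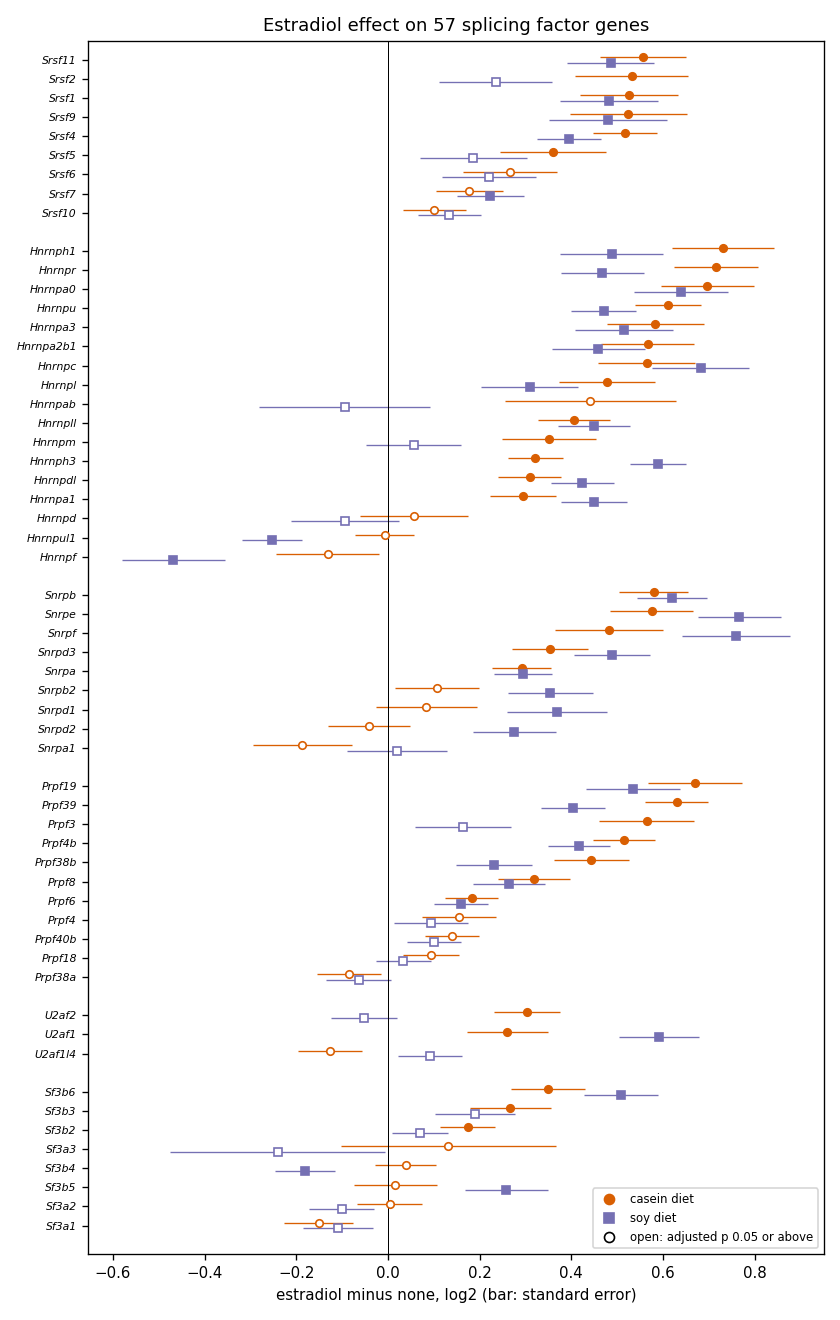
Log2 difference between estradiol and none for each of the 57 genes, by family, on casein (circles) and soy (squares); bars are standard errors and filled symbols were called. Most Hnrnp, Srsf and Snrp genes lie to the right of 0 on both diets, Hnrnph1 is highest on casein at 0.73, and Hnrnpf is lowest on soy at −0.47.

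The casein and soy comparisons shared no arrays, but 1 fit gave both the same estimate of spread for each gene, so their calls are linked. Of the genes that rose, 29 rose on both diets, which is 80.6% of those on casein and 85.3% of those on soy. Over all genes these shares were 69.5% and 60.7%. These 29 are 50.9% of the 57 genes, beside 13.8% of all genes that rose on both diets. A total of 7 genes were called on casein alone (Hnrnpm, Prpf3, Sf3b2, Sf3b3, Srsf2, Srsf5 and U2af2) and 5 on soy alone (Sf3b5, Snrpb2, Snrpd1, Snrpd2 and Srsf7). These lists changed with single arrays. When replicate 2 of soy with estradiol was left out, 33 genes rose on both diets, 6 on casein alone (Hnrnpab, Hnrnpm, Prpf3, Prpf40b, Sf3b2 and U2af2) and 3 on soy alone (Prpf4, Snrpb2 and Snrpd2). On the brightest probe set of each gene Prpf3 (0.20, adjusted p = 0.0275), Srsf2 and U2af2 were called on soy as well, and Sf3b3 was so called with deposited values (0.26, adjusted p = 0.0247) and after centring (0.24, adjusted p = 0.0267). The casein call of Sf3b2 was lost in 12 of 20 alternatives, among them the replicate block (adjusted p = 0.0629), and that of Hnrnpm in 4, where the adjusted p was 0.0631 without casein replicate 3 and 0.0711 without replicate 3 of its estradiol group. Across the 57 genes, which are not independent, the differences on the 2 diets had Pearson's r of 0.71 and Spearman's rho of 0.73, and over all genes 0.79 and 0.76. In the interaction test, which compares the estradiol effect between diets, limma called 0 of the 57 genes, with 9 (15.8%) at an unadjusted p under 0.05, beside 18.9% of all genes. The background was 0.909% of all genes called, and the smallest adjusted p among the 57 was 0.107, for U2af2. After centring on array medians 1 gene was called, Hnrnph3, with a difference of 0.42 (adjusted p = 0.0423). Scaling moved the share of rises among all interaction calls from 22.4% to 51.0% as deposited and 72.0% after centring, and the median of all genes to 0.10.

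The diet alone changed few of these genes. In soy against casein without estradiol limma called 1 of the 57 genes higher and 0 lower, beside 4.33% and 2.02% of all genes, and 10 (17.5%) had an unadjusted p under 0.05, beside 22.0% of all. This gene was U2af2, the large U2AF subunit that binds the polypyrimidine tract. It read 8.34, 8.27 and 8.28 on casein and 8.63, 8.49 and 8.62 on soy, a 1.22-fold difference (0.28 ± 0.07, adjusted p = 0.0391). The groups did not overlap, but the call was lost in 11 of 20 alternatives, over which the adjusted p ran from 0.0157 to 0.155. The adjusted p was 0.0762, 0.113 and 0.127 without casein replicates 1, 2 and 3, 0.140 and 0.127 without soy replicates 1 and 3, and 0.0615 without casein with estradiol replicate 1. The soy arrays lay wholly above casein for 14 genes and wholly below for 6, where the background was 16.1% and 20.6%. With the values as deposited 0 genes rose and 2 fell, Hnrnph3 and Sf3a1, and after centring 0 rose and 4 fell, with Hnrnpdl and Prpf6 added. The same scalings moved the median of all genes from −0.03 to −0.10 and −0.13, and the share of rises among all calls from 68.2% to 39.0% and 26.0%.

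Among arrays with estradiol, no splicing factor gene was called between the diets. In soy against casein with estradiol limma called 0 of the 57 genes and 0 of all genes, and 10 of the 57 (17.5%) had an unadjusted p under 0.05, beside 13.3% of all genes. The smallest adjusted p among the 57 was 0.242. The arrays did not overlap for 4 genes higher and 4 lower on soy, against 5.98% and 8.30% of all genes.

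Single probe sets of a gene did not always move together. Of the 92 probe sets, 58 rose and 0 fell on casein, where 21.9% of all probe sets rose and 19.9% fell. On soy 54 rose and 5 fell, against 25.3% and 24.3%. Of the 20 genes with several probe sets, all had the same sign in 18 on casein and 13 on soy. A probe set was called as departing when its value minus the mean of the other probe sets of its gene changed. In a gene with only a pair of probe sets, both give the same test with the sign turned, and both are counted, here and in the background. Of the 55 probe sets in these genes, 15 departed on casein in 8 genes and 16 on soy in 9 genes. The background was 32.2% and 38.8% of all probe sets so tested, above the 27.3% and 29.1% found here. Between the diets without estradiol 7 of the 92 probe sets were called (7.61%), beside 9.73% of all, and 8 departed, or 14.5%, beside 17.2% of all. Between the diets with estradiol 0 were called, beside 0.0046% of all. An unadjusted p under 0.05 was found for 17, a count for which no share of all probe sets was computed. Over all genes 13.3% had such a p, so the 17 are not read as a difference between diets. In the interaction 4 were called (4.35%), beside 3.41% of all, and 6 departed, or 10.9%, beside 9.38% of all. Where on each transcript these probe sets lie was not analysed here.

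Hnrnpa2b1 had the largest such difference between diets. Its protein binds RNA in splicing and in transport. Probe set 1378543_at read 6.91, 6.87 and 6.87 on casein, 7.03, 6.80 and 6.91 on casein with estradiol, 6.27, 6.54 and 6.06 on soy, and 7.08, 7.08 and 6.86 on soy with estradiol. Only the soy arrays were low, and soy differed from casein by −0.59 ± 0.11 (adjusted p = 0.00689). Probe set 1395561_at read 11.61, 11.62 and 11.45 on casein, 12.56, 12.40 and 12.70 on casein with estradiol, 12.13, 12.22 and 11.94 on soy, and 12.61, 12.04 and 12.34 on soy with estradiol. Here the casein arrays were the low ones, and soy was higher by 0.53 ± 0.13 (adjusted p = 0.0214). That call was lost without casein replicates 2 or 3 or soy replicates 1 or 2, with an adjusted p of up to 0.0910. Against the other probe sets of the gene, the estradiol effect on soy exceeded that on casein by 1.05 for the first (adjusted p = 0.00446) and fell short by 0.87 for the second (−0.87, adjusted p = 0.00257). Both departures were called in all 19 alternatives run. Each was measured against a mean that holds the other probe set, so they are not separate results. Tested alone, the interactions were 0.68 and −0.76, and these calls were lost in 11 and 12 of 19 alternatives. The mean over the 4 probe sets of the gene differed between soy and casein by 0.01.

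Prpf4b, a kinase associated with the spliceosome, showed a like split. Probe set 1382646_at read 7.54, 7.49 and 7.53 on casein, 8.33, 8.21 and 8.45 on casein with estradiol, 8.08, 8.13 and 7.90 on soy, and 8.14, 8.29 and 8.14 on soy with estradiol. It was higher on soy than on casein without estradiol (0.52 ± 0.08, adjusted p = 0.00292), and its departure in the interaction was −0.75 ± 0.11 (adjusted p = 0.00292), called in all 19 alternatives. The other 3 probe sets of Prpf4b were not called in soy against casein.

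U2af2 also split by probe set. Probe set 1388797_at rose with estradiol by 0.56 on casein and by 0.39 on soy (adjusted p = 0.00271). Probe set 1395282_at read 7.77, 7.52 and 7.90 on soy and 7.21, 7.48 and 7.42 with estradiol, a fall of 0.36 on the log2 scale (−0.36 ± 0.10, adjusted p = 0.00957). The mean of the 3 probe sets on soy, −0.05, therefore joined values of opposite sign. Srsf2 and Hnrnph3 each had a pair of probe sets that differed in the size of the estradiol effect on soy, by 0.67 (adjusted p = 0.00259) and 0.60 (adjusted p = 0.000483). In Hnrnph3 both probe sets rose, and in Srsf2 only 1371838_at was called.

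**Figure D3:**
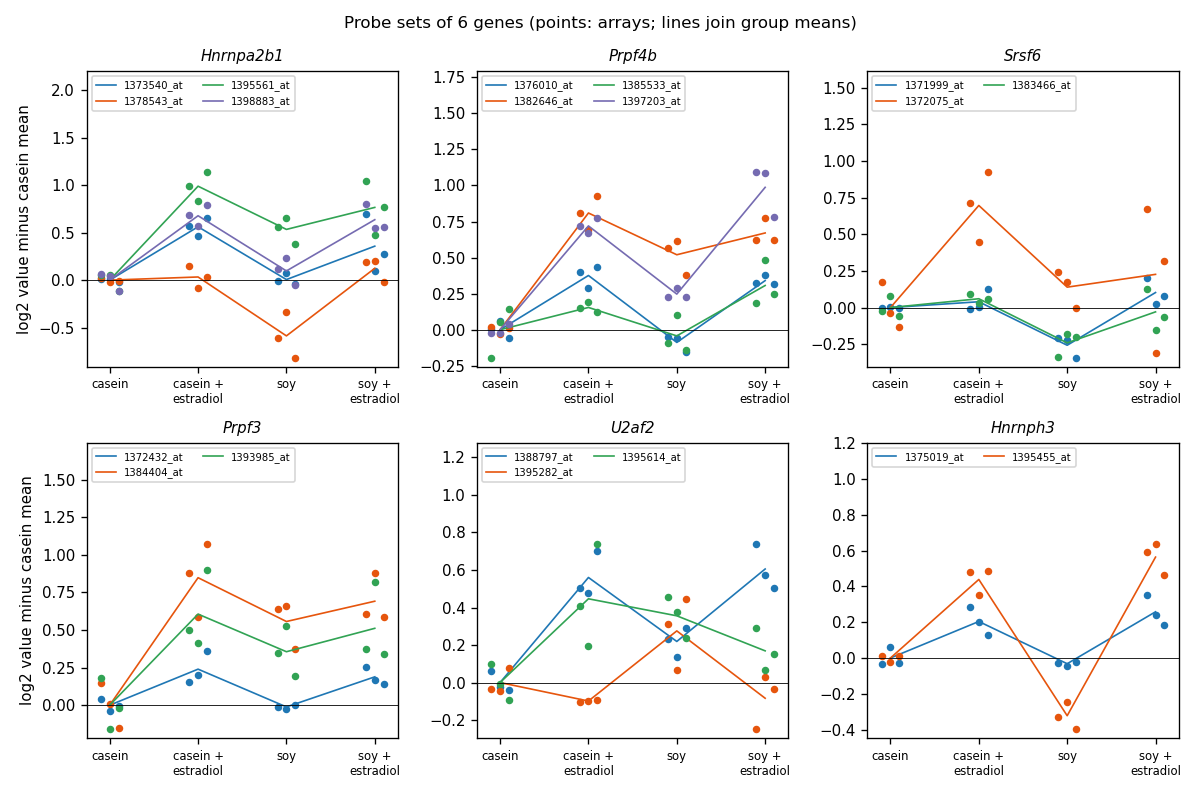
Log2 value of each probe set minus its mean on casein, in all 12 arrays, for 6 genes; points are arrays and lines join group means. In Hnrnpa2b1, the group mean of 1378543_at lies below 0 only on soy, while the group means of 1395561_at lie above 0 on soy and with estradiol.

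Other genes of the splicing machinery, from a list of 151 of which 138 were measured, were measured beside them. On casein 60 rose and 14 fell (median 0.19), or 43.5% and 10.1%, beside 19.8% and 24.2% of all genes. On soy 63 rose and 13 fell (median 0.19), or 45.7% and 9.42%, beside 22.7% and 27.4% of all genes. Rnps1, a protein deposited at exon junctions, rose by 1.02 on casein, and Sfpq, a splicing and paraspeckle protein, by 0.64. Gemin4, a part of the complex that assembles Sm rings, fell by 0.79 on casein and by 0.54 on soy. In soy against casein without estradiol 2 rose and 2 fell, among them Rbmx (0.38) and Mbnl3 (−0.54). These are 1.45% each, below the 4.33% and 2.02% of all genes. In the interaction 1 was called, Rbmx (−0.45, adjusted p = 0.0487), or 0.725%, below the 0.909% of all genes.

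Markers of testicular cell types moved in the same arrays. In bulk tissue fewer cells of a type and less RNA per cell cannot be told apart. Over all genes 19.8% rose and 24.2% fell on casein, and 22.7% rose and 27.4% fell on soy. Some of the marker counts below lie near these shares. Falls made up 25% of the spermatogonia markers on casein and 28.6% of the macrophage and leukocyte markers on soy. Of 13 measured spermatid markers 12 fell on each diet, and their mean level per array ran from 12.73 to 12.82 on casein, 11.69 to 12.29 on casein with estradiol, 12.74 to 12.82 on soy and 11.92 to 12.41 on soy with estradiol. Of 5 early meiotic markers 5 rose on casein and 4 on soy, with means of 10.73 to 10.85, 11.27 to 11.35, 10.95 to 11.03 and 11.23 to 11.37 in the same order. Of 13 Sertoli cell markers 8 rose and 1 fell on casein, and 8 rose on soy, with means of 8.09 to 8.15, 8.55 to 8.85, 8.01 to 8.08 and 8.52 to 8.84. Of 5 pachytene spermatocyte markers 2 fell on casein and 4 on soy. Of 9 Leydig cell markers 1 rose and 5 fell on casein, and 2 rose and 6 fell on soy. Of 8 spermatogonia markers 4 rose and 2 fell on casein, and 3 rose and 1 fell on soy, with means of 7.32 to 7.37, 7.49 to 7.66, 7.30 to 7.39 and 7.45 to 7.62. Of 7 macrophage and leukocyte markers 4 fell on casein, and 1 rose and 2 fell on soy, with means of 7.76 to 7.99, 7.33 to 7.45, 7.51 to 7.62 and 7.54 to 7.73. Of 3 fat cell markers 1 rose on each diet, of 3 endothelium markers 1 fell on casein, and 0 of 5 peritubular myoid and 0 of 2 skeletal muscle markers were called. The mean of the skeletal muscle markers was 9.01 in replicate 2 of casein with estradiol and 5.57 to 6.22 in the other 11 arrays. With that array left out 35 splicing factor genes rose on casein and 1, Snrpa1, fell (−0.29, adjusted p = 0.0437). The mean of the 57 splicing factor genes ran from 9.83 to 9.85, 10.10 to 10.22, 9.85 to 9.87 and 10.08 to 10.22. In each estradiol group the array with the lowest spermatid mean had the highest splicing factor mean, replicate 3 on casein (11.69 and 10.22) and replicate 1 on soy (11.92 and 10.22). That array also had the highest Sertoli (8.85 and 8.84), Leydig (9.20 and 9.14), spermatogonia (7.66 and 7.62) and early meiotic mean (11.35 and 11.37). Its pachytene mean was the lowest (10.89 and 10.72). In the remaining arrays with estradiol, casein replicate 1 exceeded replicate 2 in spermatid (12.29 and 12.21) and splicing factor mean (10.13 and 10.10). So did soy replicate 3 (12.41 and 12.17, 10.09 and 10.08). Without casein replicate 3 and soy replicate 1, both with estradiol, an alternative chosen after seeing the data, 35 splicing factor genes rose on casein, and 33 rose and 2 fell on soy. The remaining arrays with estradiol still had lower spermatid means (12.17 to 12.41) than all arrays without it (12.73 to 12.82). This alternative therefore does not bear on cell composition. The part of cell composition in the splicing factor result was not tested.

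**Figure D4:**
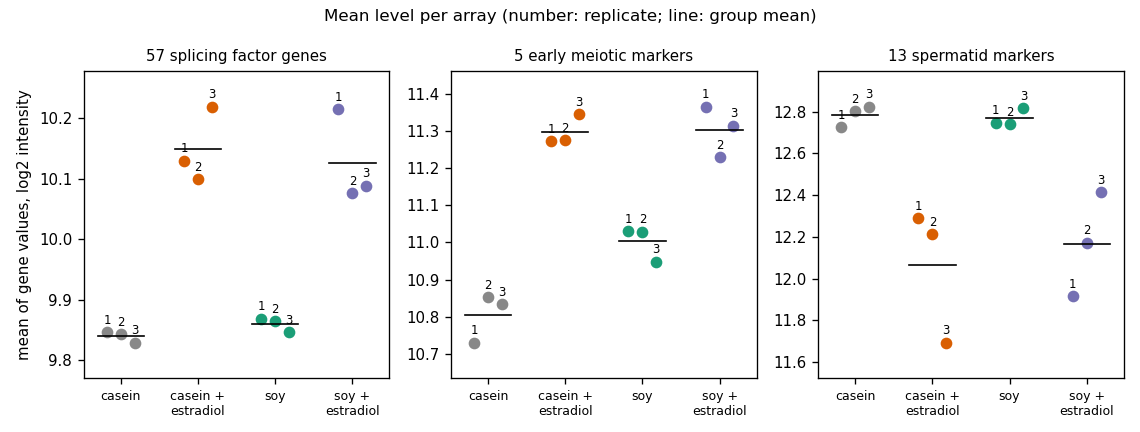
Mean log2 level per array of the 57 splicing factor genes, 5 early meiotic markers and 13 spermatid markers in the 4 groups; points are arrays with their replicate number and lines are group means. Splicing factor and early meiotic means are higher and spermatid means lower in all 6 estradiol arrays than in all 6 others.

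The difference between the 3′ and 5′ control probe sets of hexokinase, a sign of RNA quality and labelling, ran from 0.42 to 0.52 on casein, 0.08 to 0.25 on casein with estradiol, 0.14 to 0.19 on soy and −0.42 to 0.16 on soy with estradiol. The lowest value, −0.42, was that of replicate 2. That of actin ran from 1.62 to 1.68, 1.53 to 1.95, 1.47 to 1.56 and 1.51 to 1.97. For GAPDH the difference ran from −0.44 to −0.36, −0.45 to −0.38, −0.35 to −0.31 and −0.45 to −0.35. Within soy with estradiol, replicate 2 had the lowest actin value (1.51) and the highest GAPDH value (−0.35). The part of RNA quality and labelling in the splicing factor and probe set results was not tested.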

How the data were processed

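Testis RNA from 4 groups of 3 rats' arrays was labelled with biotin and hybridised to Affymetrix rat arrays, per the labels. The authors deposited log2 intensities for 31099 probe sets, made with GCOS, the Affymetrix software, per the submitters' processing notes. Its version, background correction, probe summary and normalization are not given in the sources used here, and the log2 scale was read from the values (2.80 to 14.6). Array quartiles differed by up to 0.183, so quantile normalization was applied. The 57 control probe sets were left out, then the dimmest 30% by mean (under 5.69), which left 21729. Symbols came from the platform annotation. Of all probe sets 20832 had 1 symbol, 436 several and 9831 none. All 57 splicing factor genes past the filter matched RefSeq by Entrez ID.

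Genes (11777) were fitted with limma 3.58.1 in R 4.3.3, all 12 arrays in 1 model with 8 residual degrees of freedom and an eBayes trend, with Benjamini-Hochberg adjustment over all genes or probe sets and a call at an adjusted p under 0.05. Departing probe sets (7567 tested) were fitted as the difference from the other probe sets of their gene. The procedure was tested on simulated data. The number of arrays limits the precision. An exact test of 3 against 3 cannot give p under 0.1.

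The members and lists were chosen with earlier results of these data known. A naming rule picked, in each of the 5 comparisons, the called genes with the 10 largest rises and falls (the 5 smallest p where fewer than 5 were called), those with a departing probe set, and the extremes of each family. The text also names members that this rule did not pick, such as Srsf4, Srsf5, Prpf8, Prpf18 and Sf3b3. The rule did not cover the other splicing genes that are named. Same-numbered arrays were checked for pairing: their deviations correlated at −0.36 to 0.35 (median −0.00457), so the numbers do not pair the arrays. Alternatives covered scaling, filters, the brightest probe set, a replicate block and each array left out.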

Additional observations from a re-analysis of the deposited data

Results flagged for a closer look

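Differences of the estradiol effect between the 2 diets were called for single probe sets, although for 0 of the 57 genes as a whole after quantile normalization. In the test of each probe set alone the effect on soy minus that on casein was 0.68 for Hnrnpa2b1 1378543_at (adjusted p = 0.0390), −0.76 for Hnrnpa2b1 1395561_at (adjusted p = 0.0419), −0.66 for Prpf4b 1382646_at (adjusted p = 0.0167) and 0.45 for Hnrnph3 1395455_at (adjusted p = 0.0378). These 4 are 4.35% of the 92 probe sets, beside 3.41% of all probe sets. The calls were lost in 11, 12, 3 and 10 of 19 alternatives, in the same order.

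Measured against the other probe sets of the same gene, the interaction was 1.05 for Hnrnpa2b1 1378543_at (adjusted p = 0.00446), −0.87 for Hnrnpa2b1 1395561_at (adjusted p = 0.00257) and −0.75 for Prpf4b 1382646_at (adjusted p = 0.00292), and these 3 calls were kept in all 19 alternatives. It was 0.55 for Srsf6 1371999_at (adjusted p = 0.0422), −0.84 for Srsf6 1372075_at (adjusted p = 0.0464) and −0.47 for Prpf3 1384404_at (adjusted p = 0.0494). Those 3 calls were lost in 11, 11 and 14 of 19 alternatives, with adjusted p-values of up to 0.109, 0.111 and 0.130. The 6 departing probe sets are 10.9% of the 55 tested in these genes, beside 9.38% of all. Departures within the same gene share values, so those of Hnrnpa2b1, and those of Srsf6, are not separate results.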

How the results depend on the processing

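Of the calls of genes picked by the naming rule above, 18 of 23 on casein and 19 of 25 on soy under estradiol were kept in all 20 alternatives. That rule picked genes largely by the size of their change in these same data. Other called genes, such as Hnrnpl and Prpf6, were not counted, so these figures do not measure the stability of all calls. The difference of U2af2 with estradiol on soy (−0.05, not called) became a called rise of 0.39 (adjusted p = 0.00271) on its brightest probe set. On casein 2 genes fell with the deposited values and 4 after centring, against 0. In soy against casein without estradiol the rises numbered 0 with deposited values, centring, the replicate block, or without soy with estradiol replicate 3 and soy replicate 2, and 2 without replicate 3 of casein and replicate 1 of soy, both with estradiol, against 1. The falls were 2 and 4 under the 2 scalings, against 0. The probe sets called there were 12 after centring and 4 and 13 without those pairs of arrays, against 7, and the departing ones 5 without the first pair, against 8. In the interaction 1 gene rose after centring. Its probe sets numbered 2 with the replicate block and 1 without the second pair, against 4, and its departing ones 3 with no filter and 3 without the first pair, against 6. No pairing of arrays by number was seen, though it is not excluded, and 4 of 12 arrays correlated best with their own number.

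Leaving out each array in turn gave, on casein, 30 to 39 rises, 0 to 1 falls (1 without casein with estradiol replicate 2), 45 to 65 probe sets and 10 to 24 departing ones (24 without soy with estradiol replicate 2). On soy it gave 27 to 36, 2 to 4, 47 to 65 and 9 to 22 (10 and 9 without soy replicates 1 and 3). Between diets without estradiol it gave 0 to 2 rises, 0 falls, 2 to 12 probe sets and 4 to 13 departing ones. Under estradiol it gave 0 rises and falls, 0 to 1 and 0 to 2, both highest without soy with estradiol replicate 3. In the interaction it gave 0 rises and falls, 0 to 4 and 3 to 7. Except where named, the cause of these changes was not tested.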
